A study of Mus musculus with 8 samples.

Results

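The genes described here are the axon and vessel guidance ligands and receptors, in wild-type (WT) Müller cells and in Müller cells with a conditional knockout of Nrf2 (cKO). Members were taken by symbol as the semaphorins, Slits, netrins (netrin-G included) and ephrins, with their receptors the plexins, neuropilins, Robos, Unc5 and Eph genes. They numbered 54 of the 12339 genes in the deposited table, 26 ligands and 28 receptors. The letters Unc5 also open the symbol of Unc50, which is not a netrin receptor and was left out; it stood at 41.6 ± 6.62 FPKM in WT and 44.0 ± 3.92 FPKM in cKO (mean ± SD here and throughout, n = 4 each).

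All 8 libraries came from mouse retina at postnatal day 14 (P14) of oxygen-induced retinopathy (OIR), a model in which pups raised in high oxygen lose retinal vessels and then regrow them abnormally in room air. RNA was captured by RiboTag, which pulls down tagged ribosomes of Cre-expressing cells, here meant to be Müller cells, the radial glia of the retina. There were 4 WT and 4 cKO libraries, numbered 1, 3, 4 and 5 in both groups, and values by library are given in that order. Both groups had OIR, and WT is the only genotype named for the controls. The Cre driver, the deleted exon, the strain, the sex and the number of animals behind each library are not given in the sources used here, so every p-value below reflects only how much these samples vary.

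Guidance cues are secreted or membrane-bound ligands that attract or repel growing axons and sprouting vessels through receptors on their tips. Slits act on Robo receptors, netrins on Unc5 receptors and Dcc, semaphorins on plexins, with neuropilins as partners for most secreted semaphorins, and ephrins on Eph receptors, where both sides can signal. In the retina these families help to sort neurites into layers and to map axons in the brain, and several of them steer endothelial sprouts.

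Of the 70 protein-coding mouse genes with such symbols in GENCODE M21, 54 were in the table. Each deposited gene averaged above 2 FPKM (fragments scaled to transcript length and library size), and all 54 had values above 0 in every library. Complete in the table were the neuropilins, the Unc5 receptors, the ephrins B and the Eph receptors B. Slit1, Slit3, Robo3, Robo4, Ntn1, Ntn3, Ntn5, Sema3a, Sema3c, Sema3d, Sema3g, Sema4f, Plxnb3, Efna3, Epha1 and Epha6 were not in the table and are not analysed here.

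In WT the median member stood at 10.2 FPKM, against 15.5 FPKM over all genes. The 6 with the highest WT mean were the receptor Plxnb2 (62.0 FPKM), the membrane-anchored netrin Ntng2 (50.3 FPKM), the secreted ligand Slit2 (48.0 FPKM), its receptor Robo2 (47.1 FPKM), Sema5b (42.8 FPKM) and Ntng1 (40.5 FPKM). WT libraries of these 6 genes overlapped one another in level, so neighbours in this order did not differ beyond their spread. The lowest WT mean was that of Sema6d, 2.28 ± 0.495 FPKM. Transcripts of the set came from long genes, with a median span of 57.5 kb against 24.0 kb over all genes.

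**Figure D1:**
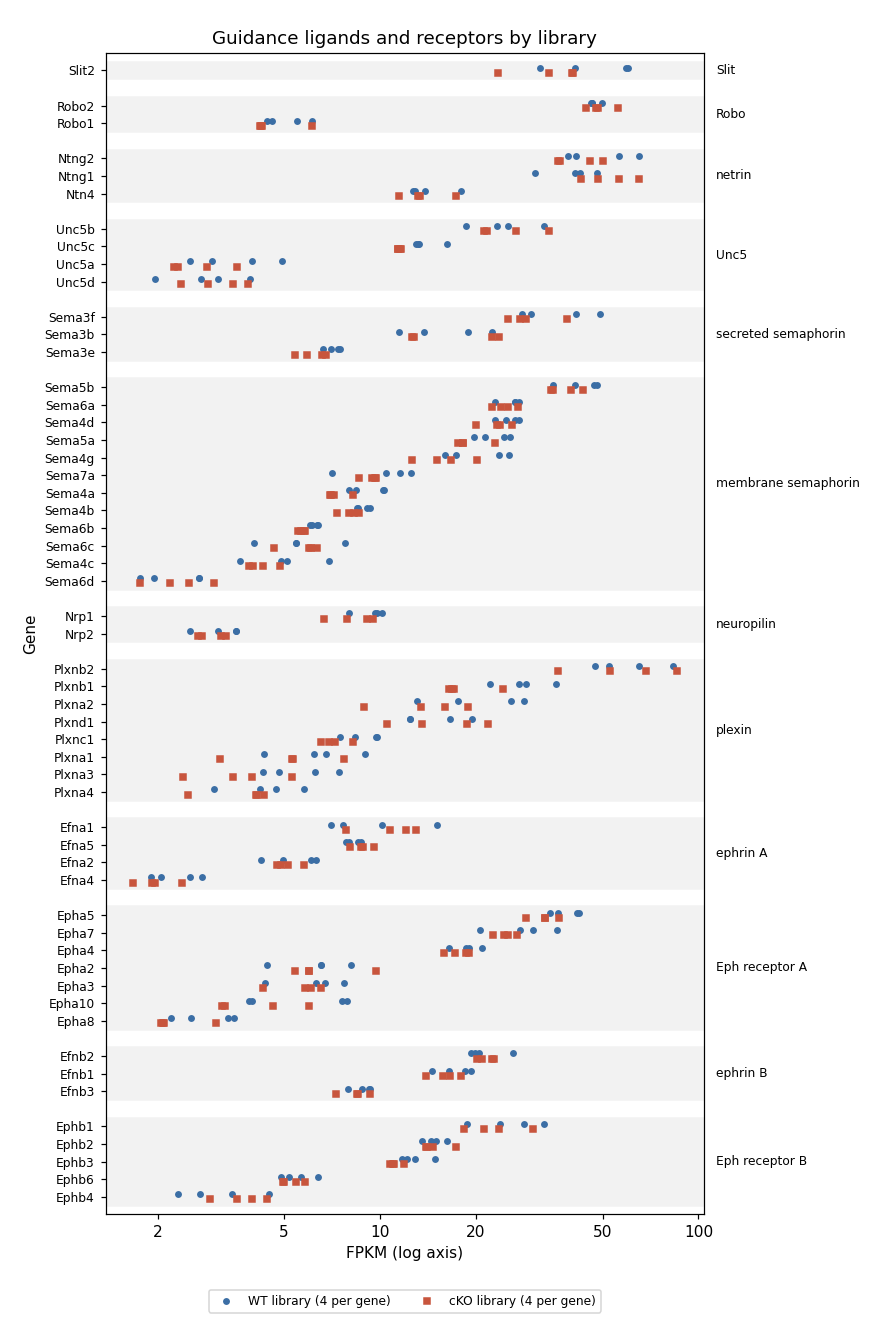
Each point is 1 library (blue circles WT, red squares cKO, 4 of each per gene), the horizontal log axis gives FPKM, and genes are grouped by family on the vertical axis. Levels ran from about that of Sema6d to that of Plxnb2, and only Unc5c and Sema6b had all cKO points below all WT points.

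The comparison asked how these RNAs differ on Müller cell ribosomes when Nrf2, a transcription factor of the oxidative stress response, is removed from those cells. The gene encoding Nrf2, Nfe2l2, stood at 17.5, 18.8, 23.1 and 17.5 FPKM in WT and 12.7, 16.5, 14.8 and 10.4 FPKM in cKO, so every cKO library was below every WT library. It differed by −0.50 on the log2 scale (standard error 0.15), with an exact two-sided permutation p of 0.0286, the smallest that 70 assignments allow when all 8 libraries are exchanged. Exchanged only within the pairs of the same number, as added after seeing the data, 16 assignments gave 0.125, the smallest they allow. With the block the limma adjusted p was 0.0219, and it was 0.0182 without pair 3 but 0.0634 to 0.0846 without pair 1, 4 or 5. Nfe2l2 RNA was still measured in the cKO libraries, and whether its reads fell in the deleted part was not examined.

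The plexins Plxnb1, Plxna2 and Plxna3 with Slit2 and Sema4g were lower in the cKO when libraries of the same number were compared as pairs. In that comparison no member was higher past the threshold. The labels give no pairing, so the fit without pairs was planned as the main one, and there no member passed. Plexins are semaphorin receptors, Slit2 is a repellent for axons and a cue for endothelial cells, and Sema4g is a membrane semaphorin. In the limma fit that compares libraries of the same number (the block), 5 of 54 members (9.26%) passed an adjusted p of 0.05, all 5 lower, and 49 did not pass; of all genes, 10.6% passed, 7.59% lower and 2.99% higher. The members' share was thus near that of the table. Without the block 0 of 54 members and 0% of all genes passed in limma, the lowest adjusted p among members being 0.453. In that fit 5 of 54 members had an unadjusted p under 0.05, 4 lower and 1 higher. Of 12339 genes, 823 (6.67%) were lower and 487 (3.95%) higher by that measure. The same pairs also differed in Xist, in a measure of unspliced RNA and in markers of other cell types, whose values follow the families. With Xist as a covariate and the block 0 of 54 members passed, with larger standard errors and with differences of −0.66 for Plxnb1, −0.64 for Plxna2, −0.59 for Slit2, −0.50 for Plxna3 and −0.42 for Sema4g. With Xist and no block 0 passed either, and the differences of these 5 genes ran from −0.39 (Plxnb1) to −0.07 (Sema4g). In bulk RNA of this kind fewer cells of a type and less RNA per cell cannot be told apart.

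Over the whole set most differences lay below 0, whether or not they passed. Of the 54, 40 had a log2 difference below 0 and 14 above, while 49.3% of all genes were below 0. The median difference of the members was −0.13 on the log2 scale and that of all genes 0.00. By pair the members' median was −0.10 in pair 1, −0.14 in pair 3, −0.13 in pair 4 and −0.19 in pair 5. Lower in all 4 pairs were 23 members (42.6%), against 19.5% of all genes, and Ntng1 alone among members was higher in all 4, against 16.7% of all genes. At an adjusted p of 0.1 with the block, 14 of 54 members (25.9%) passed, 13 lower and Ntng1 higher. Of all genes 18.3% passed, 11.4% lower and 6.82% higher. By unadjusted limma p under 0.05 with the block, 15 of 54 members were lower and 1 of 54 higher. Of 12339 genes, 1975 (16%) were lower and 1528 (12.4%) higher by that measure. The median was −0.12 over ligands and −0.16 over receptors. A correction per library for length and GC content, chosen after seeing the data, brought the members' median to −0.05 with the length of joined exons and to −0.06 with that of the longest transcript.

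**Figure D2:**
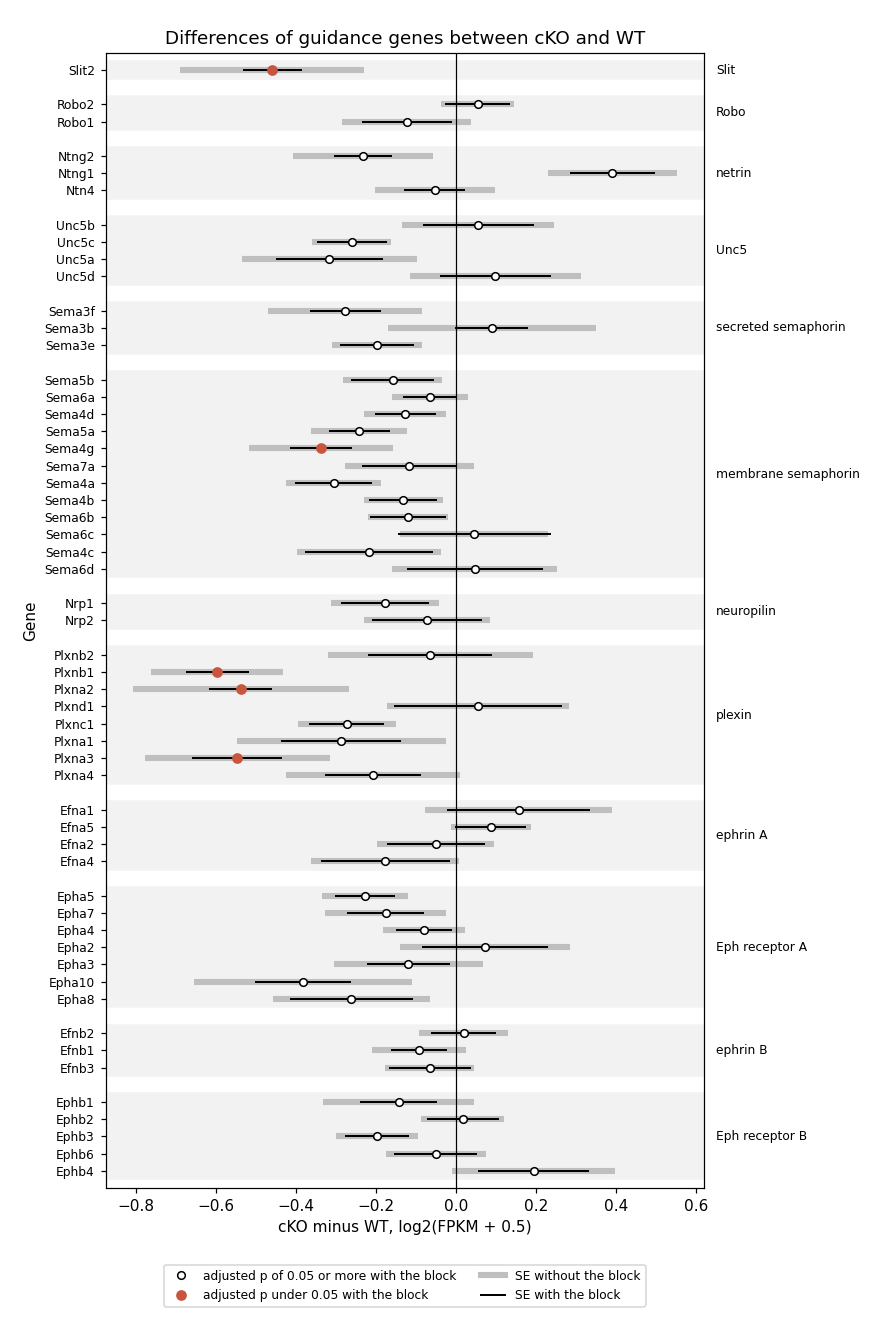
The horizontal axis is the log2 difference, cKO minus WT, of log2(FPKM + 0.5); gray bars are the standard error without the block, black bars that with it, and filled red points are the 5 members past an adjusted p of 0.05 with the block. Most points lie left of 0, and the plexins Plxnb1, Plxna3 and Plxna2 lie farthest left.

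Among the plexins, 3 of 8 fell with the block, 0 rose and 5 did not pass, and 7 of 8 had differences below 0 (median −0.28). Plxnb1 (chr9:109095389-109119917), a receptor of Sema4d, stood at 28.8, 35.8, 22.1 and 27.3 FPKM in WT and 17.0, 24.3, 16.5 and 16.8 FPKM in cKO. It was lower in each cKO library than in the WT library of its number, and only cKO 3 reached the WT range. Its difference of −0.60 on the log2 scale (standard error 0.17 without and 0.08 with the block), from 28.5 ± 5.62 to 18.6 ± 3.77 FPKM (SD, n = 4 each), was the largest fall of the set. The limma adjusted p was 0.453 without the block and 0.00446 with it, and 0.0173 to 0.0287 with each pair left out in turn.

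Plxna2 (chr1:194618218-194816869), a receptor of Sema6a in the sorting of retinal neurites, stood at 25.7, 28.3, 13.1 and 17.6 FPKM in WT and 15.96, 18.8, 8.90 and 13.4 FPKM in cKO. The pairs mattered here, since WT 4 and WT 5 lay within the cKO range while each cKO library was below its own WT library. With the block it fell by 0.54 on the log2 scale (standard error 0.08, limma adjusted p 0.00626), and without the block the adjusted p was 0.489. Plxna3 (chrX:74329066-74344689), a receptor that with Plxna1 answers to Sema5a and Sema5b in the retina, stood at 6.23, 7.45, 4.28 and 4.82 FPKM in WT and 3.97, 5.30, 2.41 and 3.45 FPKM in cKO. It too was lower in all 4 pairs with overlapping groups, with a difference of −0.55 on the log2 scale (standard error 0.11, limma adjusted p 0.0223 with the block). Plxna3 passed with pair 5 left out (0.0424) but not with pair 1, 3 or 4 left out, where its adjusted p was 0.0654 to 0.0946, nor after either length and GC correction (0.0516 and 0.0593).

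Plxnb2, the most abundant plexin, stood at 47.2, 65.2, 83.4 and 52.3 FPKM in WT and 68.5, 52.8, 85.5 and 36.3 FPKM in cKO. Its libraries varied in both directions between pairs and the groups overlapped fully, with a difference of −0.06 (standard error 0.26). Plxnd1, the vessel receptor of Sema3e, stood at 12.4, 12.5, 16.6 and 19.4 FPKM in WT and 13.6, 18.8, 21.8 and 10.5 FPKM in cKO, higher in 3 of 4 pairs and lower in pair 5. Plxna1 was at 6.57 ± 1.92 FPKM in WT and 5.36 ± 1.86 FPKM in cKO, and Plxnc1, the receptor of Sema7a, at 8.83 ± 1.10 FPKM in WT and 7.21 ± 0.727 FPKM in cKO; neither passed in either fit. For Plxna4 the means were 4.42 and 3.75 FPKM, lower in all 4 pairs with an adjusted p of 0.286 with the block.

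The neuropilins, coreceptors of secreted semaphorins and of VEGF, did not pass. Nrp1 stood at 7.97, 10.1, 9.62 and 9.79 FPKM in WT and 7.86, 9.07, 9.51 and 6.65 FPKM in cKO, with cKO 5 below all other libraries and the remaining ones interleaved. Nrp2 was at 3.17 ± 0.467 FPKM in WT and 2.97 ± 0.2996 FPKM in cKO.

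Slit2 (chr5:47983138-48307733) was the only Slit in the table and the third most abundant member. It stood at 59.8, 59.2, 31.9 and 40.9 FPKM in WT and 40.3, 39.9, 23.4 and 33.9 FPKM in cKO. WT 1 and WT 3 were high and WT 4 and WT 5 lower, and the cKO libraries followed the same order by number, each below its pair. The mean went from 48.0 ± 13.9 to 34.4 ± 7.90 FPKM, and Slit2 fell by 0.46 on the log2 scale with the block (standard error 0.07, limma adjusted p 0.00888, 0.0156 to 0.0492 with a pair left out); without the block the adjusted p was 0.488. The call depended on the length used for the correction, with an adjusted p of 0.265 and a difference of −0.12 for joined exons and 0.0469 and −0.26 for the longest transcript.

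Its receptors did not pass. Robo2, which sits on axons and other neurites, stood at 46.3, 46.3, 49.9 and 46.1 FPKM in WT and 47.8, 48.5, 44.2 and 55.8 FPKM in cKO, with cKO 5 highest and cKO 4 lowest of the 8. Robo1, a receptor on neurons and endothelium, stood at 4.59, 6.11, 5.47 and 4.41 FPKM in WT and 4.26, 6.12, 4.20 and 4.23 FPKM in cKO; WT 3 and cKO 3 were nearly equal and above the rest. The differences were 0.05 for Robo2 and −0.12 for Robo1.

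**Figure D3:**
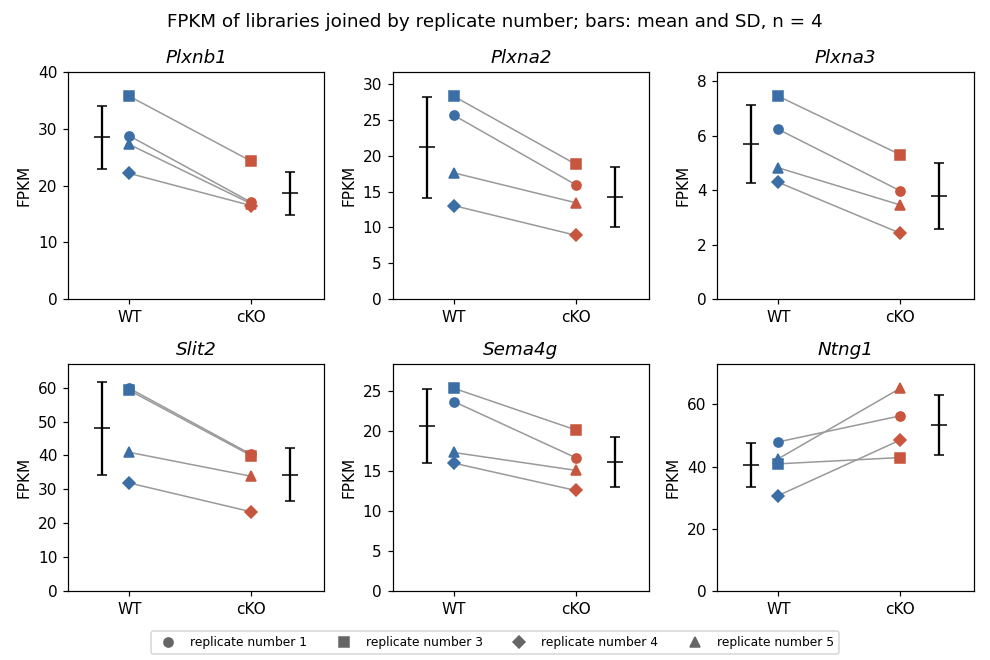
Each panel gives FPKM of 1 gene from 0 upward, with lines joining the WT (blue) and cKO (red) library of the same replicate number, coded by marker shape, and bars giving mean ± SD (n = 4). The 5 genes that fell with the block drop in every pair, and Ntng1 is higher in cKO in every pair.

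The promoters of the 5 genes that fell are shown to let the letters around their start sites be compared. Sequences are RefSeq windows of GRCm38.p6, from 250 bases before to 50 after a start site, all 5 on the plus strand of the genome, at chr9:109095186-109095485 for Plxnb1, chr1:194619579-194619878 for Plxna2, chr5:47982905-47983204 for Slit2, chrX:74328816-74329115 for Plxna3 and chr19:44989094-44989393 for Sema4g. Capitals mark GGGCGG, the GC box, and ACGTG, a form of the hypoxia response core, on either strand (CCGCCC and CACGT when read on the opposite one). Overlapping matches were counted separately.
Plxnb1: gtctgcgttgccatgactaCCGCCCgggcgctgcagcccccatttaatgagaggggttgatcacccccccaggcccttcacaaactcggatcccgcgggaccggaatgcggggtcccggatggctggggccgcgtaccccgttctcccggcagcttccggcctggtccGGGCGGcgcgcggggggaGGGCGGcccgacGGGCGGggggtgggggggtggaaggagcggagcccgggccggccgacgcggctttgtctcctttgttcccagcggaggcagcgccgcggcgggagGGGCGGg
Plxna2: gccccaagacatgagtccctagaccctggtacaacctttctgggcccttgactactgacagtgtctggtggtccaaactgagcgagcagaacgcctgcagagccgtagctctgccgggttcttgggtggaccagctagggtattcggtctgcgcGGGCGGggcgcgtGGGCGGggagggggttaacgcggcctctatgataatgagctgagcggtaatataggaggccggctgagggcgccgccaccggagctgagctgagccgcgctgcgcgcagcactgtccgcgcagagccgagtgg
Slit2: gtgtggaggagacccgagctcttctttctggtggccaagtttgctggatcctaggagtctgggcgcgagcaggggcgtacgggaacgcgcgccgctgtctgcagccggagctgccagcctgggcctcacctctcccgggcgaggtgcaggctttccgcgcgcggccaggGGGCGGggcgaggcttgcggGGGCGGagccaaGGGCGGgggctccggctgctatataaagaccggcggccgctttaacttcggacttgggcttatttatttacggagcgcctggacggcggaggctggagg
Plxna3: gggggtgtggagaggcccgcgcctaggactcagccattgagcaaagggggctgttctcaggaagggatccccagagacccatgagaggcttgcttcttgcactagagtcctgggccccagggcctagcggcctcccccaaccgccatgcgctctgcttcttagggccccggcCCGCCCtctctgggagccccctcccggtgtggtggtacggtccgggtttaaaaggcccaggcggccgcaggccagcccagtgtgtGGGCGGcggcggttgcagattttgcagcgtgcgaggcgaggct
Sema4g: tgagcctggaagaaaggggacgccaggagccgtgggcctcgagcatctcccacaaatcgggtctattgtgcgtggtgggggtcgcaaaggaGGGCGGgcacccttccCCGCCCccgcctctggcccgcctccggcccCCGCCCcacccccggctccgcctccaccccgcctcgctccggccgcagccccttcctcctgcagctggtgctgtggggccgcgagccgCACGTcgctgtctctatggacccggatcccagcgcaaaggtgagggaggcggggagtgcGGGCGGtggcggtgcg
GC content was 74.7% in the window of Plxnb1, 64.7% for Plxna2, 68.0% for Slit2, 67.7% for Plxna3 and 73.3% for Sema4g. The antioxidant response element core bound by Nrf2, searched as TGACNNNGC on both strands, matched none of these 5 windows. ACGTG matched 1 time, in Sema4g, and GGGCGG matched 5, 2, 3, 2 and 4 times in Plxnb1, Plxna2, Slit2, Plxna3 and Sema4g.

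Across the set, 47 of 54 members had RefSeq windows, 62 in all. GGGCGG was in 45 of these windows (72.6%), against 35.7% of all 32851 windows. TGACNNNGC was in 7 windows (11.3%, against 12.4% of all) and ACGTG in 12 (19.4%, against 19.6%). The 32851 windows were not limited to genes of the table, all of which passed its expression filter. Shares over the table's genes alone are not given, so no excess over expressed genes can be read from these values. The 7 genes with TGACNNNGC were Efna5, Efnb2, Ntn4, Sema4a, Sema4d, Sema5a and Sema7a. The 3 matches of the arterial ligand Efnb2 and those of Sema4a and Sema5a, with neighbouring bases, are shown as examples, the match in capitals; each is written along the strand of the match, the gene's own for Efnb2 and Sema4a (both on the minus strand of the genome) and the opposite one for Sema5a. In GRCm38.p6 they lie at chr8:8661473-8661492, chr8:8661276-8661300 and chr8:8661244-8661268 for Efnb2, chr3:88458904-88458928 for Sema4a and chr15:32244829-32244853 for Sema5a.
Efnb2 at −247: aggTGACCCTGCtggtgcga
Efnb2 at −50: gctgcgttTGACTGGGCggggcccc
Efnb2 at −18: tagtgctcTGACAGCGCgcccggcg
Sema4a at −36: tctggcgcTGACTCTGCcctgagga
Sema5a at 24: gccgctgcTGACGCCGCcttcctag
Positions count bases from the start site, and the Efnb2 match at −50 overlaps a GC box. A match, or its lack, describes the letters of these windows only. The levels of these 7 genes are given with their families, and none of the 7 passed in either fit.

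Among the membrane semaphorins, which act on plexins of neighbouring cells, 1 of 12 fell with the block, 0 rose and 11 did not pass. Sema4g (chr19:44989101-45003397) stood at 23.7, 25.4, 15.99 and 17.3 FPKM in WT and 16.7, 20.1, 12.6 and 15.1 FPKM in cKO. Each cKO library was below its WT pair, WT 1 and WT 3 stood above all others, and the groups overlapped. It fell by 0.34 on the log2 scale with the block (standard error 0.08, limma adjusted p 0.0314), the smallest of the 5 falls. Sema4g passed with pair 5 left out (0.0419) but not with pair 1, 3 or 4 left out (0.0942 to 0.122), nor after either length and GC correction (0.115 and 0.0657).

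Sema5a and Sema5b, repellents that confine neurites to the inner retina, were at 22.8 ± 2.75 FPKM in WT and 19.2 ± 2.52 FPKM in cKO and at 42.8 ± 6.07 FPKM in WT and 38.1 ± 4.20 FPKM in cKO, with differences of −0.24 and −0.16. Sema6a, a partner of Plxna2 and Plxna4, stood at 22.9, 26.6, 26.6 and 27.3 FPKM in WT and 22.5, 27.1, 23.9 and 25.2 FPKM in cKO, WT 1 and cKO 1 being the lowest of their groups. Sema4a stood at 7.996, 10.3, 10.2 and 8.42 FPKM in WT and 7.18, 6.99, 8.20 and 6.95 FPKM in cKO, lower in all 4 pairs, with only cKO 4 inside the WT range (adjusted p 0.079 with the block). Sema4d, the ligand of Plxnb1, was at 25.4 ± 1.92 FPKM in WT and 23.3 ± 2.42 FPKM in cKO, lower in 3 of 4 pairs. Sema7a was at 10.4 ± 2.38 FPKM in WT and 9.35 ± 0.513 FPKM in cKO. Sema6b was 1 of 2 members whose cKO values were all below all WT values, at 6.35, 6.03, 6.13 and 6.38 FPKM in WT and 5.63, 5.81, 5.53 and 5.76 FPKM in cKO, a narrow gap with an adjusted p of 0.433 with the block. Such a gap occurred in 2 of 54 members (3.70%), against 2.28% of all genes, and the reverse gap in 0, against 2.06%. The remaining 4 membrane semaphorins, Sema4b, Sema4c, Sema6c and Sema6d, differed by −0.22 to 0.05 on the log2 scale.

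None of the 3 secreted semaphorins passed. Sema3f, which acts through Nrp2, stood at 41.2, 49.0, 29.9 and 27.9 FPKM in WT and 28.8, 38.7, 25.2 and 27.5 FPKM in cKO. It was lower in all 4 pairs, and WT 1 and WT 3 stood highest, with cKO 3 between them and the rest (difference −0.28, adjusted p 0.081 with the block). Sema3e stood at 6.62, 7.46, 7.40 and 7.01 FPKM in WT and 5.40, 6.59, 6.74 and 5.90 FPKM in cKO, lower in all 4 pairs, with cKO 4 above WT 1 (adjusted p 0.191). Sema3b was at 16.6 ± 4.99 FPKM in WT and 17.9 ± 6.02 FPKM in cKO.

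Of the netrin genes Ntng1 and Ntng2 are anchored to the membrane and bind Lrrc4c and Lrrc4, not Dcc or Unc5. Ntng1 stood at 47.9, 40.9, 30.7 and 42.5 FPKM in WT and 56.3, 42.9, 48.5 and 65.2 FPKM in cKO. All 4 pairs were higher in cKO, pair 3 by little, while the groups overlapped. The difference of 0.39 (standard error 0.16 without and 0.10 with the block) had a limma adjusted p of 0.469 without the block and 0.0538 with it. It passed with a minimum mean of 5 FPKM (0.0436), with robust variance (0.0479), without pair 3 (0.0387) and after either length and GC correction (0.0347 and 0.0369).

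Ntng2 stood at 56.1, 65.0, 41.2 and 39.0 FPKM in WT and 45.6, 50.1, 36.3 and 36.8 FPKM in cKO, lower in all 4 pairs, so that the 2 netrin-G genes lay on opposite sides of 0 (Ntng2 difference −0.23, adjusted p 0.0724 with the block). Their binding partners Lrrc4c and Lrrc4 did not pass, with differences of −0.01 and −0.09. Ntn4, a secreted netrin of basement membranes, stood at 12.6, 12.9, 18.0 and 13.8 FPKM in WT and 13.1, 11.5, 17.3 and 13.3 FPKM in cKO, with WT 4 and cKO 4 highest.

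The Unc5 receptors, which mediate repulsion by netrins, did not pass. Unc5b, found on endothelial tip cells, stood at 18.6, 23.2, 32.8 and 25.2 FPKM in WT and 21.7, 34.0, 26.6 and 21.2 FPKM in cKO, higher in pairs 1 and 3 and lower in pairs 4 and 5. Unc5c was the other member with cKO values all below WT, at 13.2, 16.2, 13.3 and 13.0 FPKM in WT and 11.6, 11.4, 11.6 and 11.3 FPKM in cKO. The cKO libraries were nearly equal and the WT libraries were close too, except WT 3 (difference −0.26, unadjusted limma p 0.0243, adjusted 0.454, 0.0928 with the block). After the exon length and GC correction the Unc5c difference with the block was 0.00. Unc5a stood at 3.97, 4.93, 2.97 and 2.52 FPKM in WT and 2.86, 3.54, 2.26 and 2.33 FPKM in cKO, lower in all 4 pairs, and Unc5d at 2.93 ± 0.809 FPKM in WT and 3.14 ± 0.644 FPKM in cKO.

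Ephrins and Eph receptors, with 19 members, held none that passed in either fit. Efnb2, the arterial ephrin, stood at 19.3, 19.8, 20.5 and 26.1 FPKM in WT and 20.1, 22.5, 20.9 and 22.8 FPKM in cKO, with WT 5 highest and no order between groups. Ephb4, its venous receptor, stood at 2.73, 3.44, 4.47 and 2.33 FPKM in WT and 3.56, 4.43, 3.97 and 2.92 FPKM in cKO, higher in 3 of 4 pairs (difference 0.19, adjusted p 0.394 with the block). Efna1, which binds Epha2 on vessels, stood at 7.02, 7.66, 15.1 and 10.1 FPKM in WT and 10.7, 12.1, 13.0 and 7.80 FPKM in cKO, with WT 4 highest and pairs on both sides. Efna5, a repellent in the mapping of retinal axons, was at 8.25 ± 0.425 FPKM in WT and 8.81 ± 0.621 FPKM in cKO. The range of differences was −0.18 to 0.16 over the 4 ephrins A and −0.09 to 0.02 over the 3 ephrins B.

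Eph receptors A lay mostly below 0, 6 of 7 with a median of −0.18. Epha10, a receptor without kinase activity, stood at 7.60, 7.88, 3.87 and 3.96 FPKM in WT and 4.61, 5.97, 3.18 and 3.27 FPKM in cKO, lower in all 4 pairs with WT 1 and WT 3 apart from the others, and had the lowest difference of the members that did not pass (−0.38, adjusted p 0.0777 with the block). Epha5, the most abundant Eph receptor and known from the mapping of retinal axons, stood at 34.1, 41.7, 42.2 and 36.1 FPKM in WT and 33.1, 32.9, 36.6 and 28.7 FPKM in cKO, lower in all 4 pairs (adjusted p 0.0832); after the exon length and GC correction its difference was 0.01. Epha7 and Epha4 were at 28.5 ± 6.39 FPKM in WT and 24.8 ± 1.76 FPKM in cKO and 18.7 ± 1.79 FPKM in WT and 17.7 ± 1.41 FPKM in cKO. Over the 5 Eph receptors B differences ran from −0.20 (Ephb3) to 0.19 (Ephb4).

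Beyond ligands and receptors, 84 of 95 listed coreceptors and cytoplasmic effectors of guidance were in the table, and with the block 7 fell and 1 rose (9.52% passed, again near the 10.6% of all genes), with a median difference of −0.05. Without the block 0 passed, as for all genes. Those that fell were Trio, Limk2, Mical3, L1cam, Srgap3, Dscaml1 and Neo1. Trio, an exchange factor for small GTPases downstream of netrin signalling, stood at 61.0, 68.4, 50.8 and 50.3 FPKM in WT and 43.5, 45.9, 31.7 and 39.9 FPKM in cKO (difference −0.51, limma adjusted p 0.00609 with the block). Limk2, the kinase that acts on cofilin, differed by −0.41 (0.00722). Mical3, of a family that relays plexin signals to actin, differed by −0.54 (0.0109). L1cam, an adhesion partner of Nrp1, differed by −0.75 (0.0147), the largest difference of the 8. Srgap3, a GTPase inactivator linked to Robo, differed by −0.34 (0.0167). Dscaml1 and Neo1, an adhesion protein and a netrin and RGM receptor, differed by −0.34 and −0.28 (0.0346 and 0.0359). Chn1, a Rac inactivator downstream of EphA4, rose by 0.22 (0.0475). With pairs left out in turn, Trio and Limk2 passed in all 4 fits and Dscaml1, Neo1 and Chn1 in 0. After the length and GC corrections Limk2, L1cam and Chn1 passed under both lengths, and Trio, Mical3, Srgap3, Dscaml1 and Neo1 under neither. Kdr, the VEGF receptor and Nrp1 partner, was at 171 ± 35.3 FPKM in WT and 147 ± 22.6 FPKM in cKO (adjusted p 0.0832 with the block). Dcc was not in the table.

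Several library measures moved with these differences. The mean log2 level of 81 genes annotated as TEC (transcripts awaiting experimental evidence) or sense intronic, a stand-in for unspliced RNA, was 2.59, 2.76, 2.27 and 2.005 in WT and 2.22, 2.46, 1.86 and 1.64 in cKO. It was lower in cKO in each pair, and within each group it was highest in library 3, next in library 1, and lower in libraries 4 and 5; libraries 1 and 3 were also the highest of their group for Plxnb1, Plxna2, Plxna3, Slit2 and Sema4g. Xist, transcribed from the inactive X chromosome of females, stood at 58.1, 72.1, 39.9 and 27.0 FPKM in WT and 25.0, 50.004, 0.0863 and 0.00505 FPKM in cKO. With Xist as a covariate and the block, the adjusted p was 0.0602 for Plxnb1, 0.0582 for Plxna2 and 0.0552 for Slit2, whose differences were farther from 0 than without Xist while their standard errors went from 0.08, 0.08 and 0.07 to 0.13, 0.12 and 0.10. The Ntng1 difference in that fit was 0.06. With Xist and no block the differences were closer to zero, at −0.39 for Plxnb1, −0.13 for Plxna2, −0.14 for Slit2, −0.17 for Plxna3 and −0.07 for Sema4g. With the unspliced measure as a covariate and no block the differences were −0.39 for Plxnb1, −0.18 for Plxna2, −0.18 for Slit2, −0.24 for Plxna3 and −0.08 for Sema4g, and none passed. With that measure and the block together the standard error for Slit2 rose from 0.07 to 0.63 and no gene of the table passed. Within pairs the measure differed by nearly the same amount, −0.38, −0.29, −0.41 and −0.36. With the block this fit can hardly separate it from genotype, and nothing is concluded from the lack of calls.

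**Figure D4:**
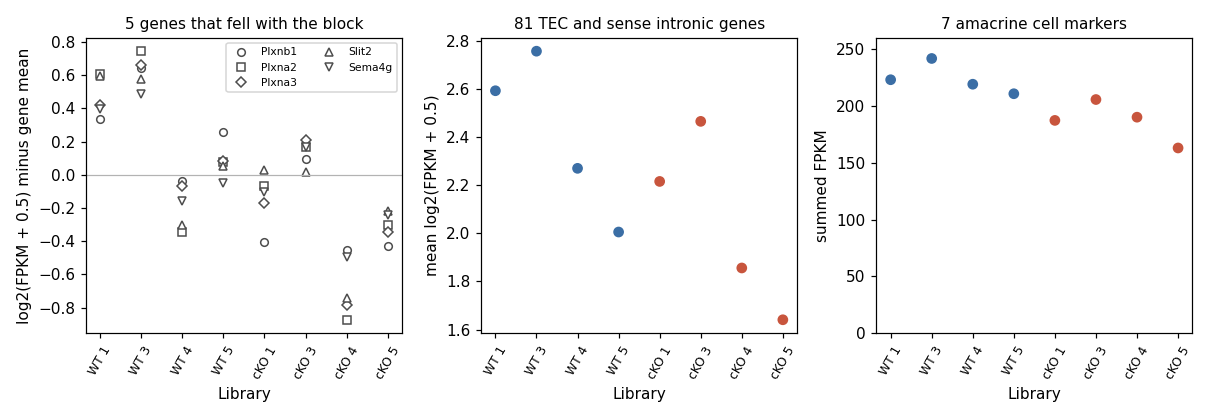
The left panel gives, for each of the 8 libraries, the 5 genes that fell with the block as log2(FPKM + 0.5) minus the gene's mean; the middle panel the mean log2 level of 81 TEC and sense intronic genes; the right panel the summed FPKM of 7 amacrine markers from 0 upward. All 3 were lower in cKO than in WT within each number, and the amacrine sums of the groups did not overlap. Most of the amacrine sum was Pax6.

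Müller cell markers were high, 10 of 10 in the table with sums of 8822 to 15056 FPKM in WT and 9053 to 13170 FPKM in cKO. The sum was higher in cKO in pair 1 and lower in pairs 3, 4 and 5. The mean of Glul was 3875 ± 825 FPKM in WT and 3150 ± 840 FPKM in cKO. Of the 10 markers only Vim and Clu had higher means in cKO. Rod markers (9 of 9) had the next highest sums, 3015 to 4802.5 FPKM in WT and 3245 to 4933 FPKM in cKO. Cone markers (7 of 8) summed to 90.8 to 121 FPKM in WT and 101 to 117 FPKM in cKO. For rods and for cones some pairs were higher in cKO and some lower. The cone sum joined genes that went opposite ways. Means of Opn1sw (19.4 to 12.5 FPKM), Arr3 (13.4 to 8.81), Pde6c (8.43 to 4.87) and Opn1mw (5.24 to 3.35) were lower in cKO. Those of Gngt2 (32.0 to 45.0 FPKM), Pde6h (6.66 to 9.77) and Gnat2 (23.5 to 26.3) were higher. Inner retinal neurons, which also make many guidance receptors, were represented by amacrine markers (7 of 8, Chat not in the table), with sums of 211 to 242 FPKM in WT and 163 to 206 FPKM in cKO, and by ganglion cell markers (6 of 9), 64.2 to 85.8 FPKM and 46.4 to 66.1 FPKM, both lower in cKO in all 4 pairs. Bipolar cell markers (9 of 9) were higher in cKO in all 4 pairs, with sums of 1246 to 1714 FPKM in WT and 1611 to 1951 FPKM in cKO. The sum of astrocyte markers (4 of 5) was higher in all 4 pairs too, 113 to 264 FPKM and 238 to 392 FPKM. Most of this rise was Gfap, whose mean went from 91.7 FPKM in WT to 218 FPKM in cKO. The means of S100b went from 22.4 to 30.7 FPKM, of Pdgfra from 21.9 to 24.2 FPKM and of Aldh1l1 from 32.7 to 34.4 FPKM. The astrocyte sum thus mainly followed 1 gene, and which cells the Gfap RNA came from was not tested. Endothelial markers had 4 of 12 in the table, with Pecam1, Cdh5 and Cldn5 among those not in it. The endothelial sum was 185 to 269 FPKM in WT and 169 to 227 FPKM in cKO. It was higher in cKO in pair 1 and lower in pairs 3, 4 and 5. Most of it was Kdr, whose mean went from 171 FPKM in WT to 147 FPKM in cKO. The mean of Flt1 went from 32.2 to 30.6 FPKM, while those of Egfl7 and Esam were slightly higher in cKO. The endothelial sum thus mainly followed Kdr. Pericyte and smooth muscle markers (2 of 9) summed to 31.0 to 40.1 FPKM in WT and 46.8 to 59.4 FPKM in cKO, but went opposite ways, Rgs5 from 28.0 ± 2.25 to 47.9 ± 5.52 FPKM and Pdgfrb from 6.95 ± 2.06 to 5.65 ± 0.999 FPKM. The part of these cell types, of unspliced RNA and of sex in the differences of the guidance genes was not tested beyond the covariates given.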

How the data were processed

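RNA on tagged Müller cell ribosomes was sequenced in 8 libraries, with poly(A) selection and directional NEBNext kits per the labels' protocols. The authors deposited 1 table of FPKM, a unit given by the table's name. The submitters' processing notes name STAR, edgeR, GRCm38 and mm10; versions, counting, strand setting and gene filter are not given in the sources used here. Column sums were 410581 to 448130 FPKM; the number of fragments is unknown, so no counting interval was computed. Of 12339 gene IDs, 12327 were found in GENCODE M21, which gave coordinates and lengths.

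Values were taken as log2(FPKM + 0.5); fold changes on this scale understate those of low genes. The test was limma 3.58.1 under R 4.3.3 (eBayes with a trend; two-sided; Benjamini-Hochberg over 12339 genes; threshold 0.05), without and with the replicate number as a block. After removing group means, libraries of the same number correlated across genes at 0.261 to 0.591 and others at −0.479 to 0.211; since every same-number value was over 0.1, the numbers were taken to pair the samples. The labels give no batch, litter or pairing, and the fit without the block was planned as the main one. The fits were checked on simulated data.

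Named members were those past the threshold, the 6 highest in WT, a list of vessel guidance genes, and the 3 highest and 3 lowest differences that did not pass; other members named beside them were chosen with their values seen. The members and lists were chosen with earlier results of these data known. Alternatives were other pseudocounts, filters, scalings, variance settings, weights, Xist as a covariate, libraries or pairs left out and, added after seeing the data, a length and GC correction (splines with 4 degrees of freedom) and the unspliced covariate.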

Additional observations from a re-analysis of the deposited data

Results flagged for a closer look

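In groups of 4 libraries, 9 of 108 sets of values of guidance genes had 1 library far from the other 3 by Dixon's test, which chance does in about 1 of 20 groups. Library cKO 3 stood high for 5 genes: Plxnb1 at 24.3 FPKM (others 16.5 to 17.0), Sema5a at 23.0 FPKM (others 17.5 to 18.2), Epha2 at 9.74 FPKM (others 5.40 to 6.002), Robo1 at 6.12 FPKM (others 4.20 to 4.26) and Epha8 at 3.06 FPKM (others 2.05 to 2.10). Plxna4 was low in cKO 4, at 2.49 FPKM (others 4.09 to 4.32). In WT, Robo2 was high in library 4 at 49.9 FPKM (others 46.1 to 46.3), Unc5c high in library 3 at 16.2 FPKM (others 13.0 to 13.3) and Sema6a low in library 1 at 22.9 FPKM (others 26.6 to 27.3). No library was left out for this.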

How the results depend on the processing

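The counts depended on the replicate block: 0 members passed without it and 5 with it, 0 and 8 of the listed coreceptors and effectors, and Nfe2l2 (difference −0.50 in both fits) had an adjusted p of 0.453 without the pairing and 0.0219 with it, with a difference of −0.24 (adjusted p 0.309) with Xist and the block and 0.81 with unspliced RNA and the block. With the block, members past the threshold numbered 14 at a threshold of 0.1, 3 after the exon length and GC correction, 0 with Xist or with unspliced RNA as a covariate, and 3 to 6 with a pair left out. For the coreceptors and effectors the same settings gave 17, 4, 1 (Xist), 0 (unspliced RNA) and 3 to 5, and the transcript length and GC correction gave 4. Over all genes the count with the block went from 1305 to 73 with Xist, 908 and 964 with the corrections, 0 with unspliced RNA and 402 to 821 with a pair left out. With the block the unspliced measure can hardly be separated from genotype, so nothing is concluded from its counts of 0. The members' median of −0.13 became −0.084 with quantile normalization, −0.16 with equal sums, −0.069 with Xist (−0.10 with the block), −0.095 with unspliced RNA (−0.23 with the block), and −0.049 and −0.062 with the exon and transcript corrections, against all-gene medians of 0.03 in the corrections.

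With the block and unspliced RNA, where standard errors were several times larger, Plxna3 (0.17), Mical3 (0.07) and Ntng1 (−1.19) changed sign, as Nfe2l2 did. Other members changed sign in that fit too, among them Plxna1 (1.48), Robo1 (0.78) and Sema6a (0.42). The values that follow are from fits without the block unless it is named. With Xist as a covariate Ntng2 became 0.034, Robo1 0.054, Plxna1 0.028, Efnb2 −0.023 and Epha10 0.046; with Xist and the block they were −0.37, −0.012, 0.086, 0.15 and −0.55. With unspliced RNA Plxnb2 became 0.0046, Ntng2 0.052, Robo1 0.037, Sema3f 0.020, Efnb2 −0.071 and Epha10 0.053. After the exon and transcript corrections Plxnb2 became 0.057 and 0.069, Robo1 0.12 and 0.018, Nrp2 0.10 and 0.049 and Sema6a 0.037 and 0.050. Nrp2 became 0.0087 with quantile normalization, Efnb2 −0.013 with equal sums, and with library weights Plxnb2 0.13 and Ntn4 0.012. With a library left out the ranges crossed 0 for Plxnb2 (−0.25 to 0.16), Robo2 (−0.0092 to 0.10), Plxnd1 (−0.10 to 0.24), Ntn4 (−0.16 to 0.058), Unc5b (−0.082 to 0.19) and Efnb2 (−0.027 to 0.12). The cause was not tested. A minimum mean of 2 FPKM removed no gene. Of the single-gene values under alternatives, 630 kept direction and side of the threshold, 26 no longer passed, 10 newly passed and 40 changed sign. Alternatives with the block were counted only for the members that fell with it and Ntng1. The 4 libraries a group, of unknown depth, limit what could be detected.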
